A study of Bos taurus with 11 samples.

Results

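The genes of the Notch pathway were followed through 4 histone marks and CTCF in rumen epithelial primary cells (REPC), cultured cells of the cattle forestomach lining, with and without butyrate. The set was given by name as 10 genes, namely the receptors NOTCH1, NOTCH2 and NOTCH3, the ligands JAG1, JAG2, DLL1 and DLL4, the DNA-binding factor RBPJ and the target genes HES1 and HEY1. Of these, 9 were among the 25197 gene symbols of the interval table, and NOTCH3 was not analysed here. The 9 genes accounted for 456 of 371758 called intervals, and each had a start position on which all of its listings agreed.

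Notch receptors are membrane proteins that are cut when a ligand on a neighboring cell binds them. The freed intracellular part enters the nucleus, joins RBPJ and a coactivator of the Mastermind family, and turns on targets such as HES1 and HEY1, which are themselves repressors. In stratified epithelia the pathway is known for its part in the switch from dividing basal cells to differentiating upper layers. Of the marks measured here, H3K27ac is found at active promoters and enhancers, H3K4me3 at promoters, H3K4me1 at enhancers and promoter flanks, and H3K27me3 over genes held silent by Polycomb proteins. CTCF is a DNA-binding protein of chromatin loops and domain borders.

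The cells came from 1 Holstein bull calf, 2 weeks old, that had received only milk replacer. The control group was cultured without added butyrate, and the butyrate group had 5 mM butyrate in its medium for 24 h. Microbes of the rumen release butyrate as a fermentation product, and inside cells it inhibits the enzymes that remove acetyl groups from histones. Each target had 1 library per condition, and 1 input library was the background for peak calling, so no difference between conditions has a replicate check and none was tested. All values below describe these libraries. A weaker signal per cell and fewer cells with the mark cannot be told apart in such bulk libraries.

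The 10 ChIP libraries held between 26824 and 54071 intervals each. The average signal of an interval, a tag density, was the measure used. For each promoter, taken as 2 kb on either side of the start, the highest average signal among the intervals reaching it was compared as a log2 ratio of butyrate over control. Taken over every promoter with intervals in both conditions, this ratio had a median of 0.03 for CTCF and -0.01 for H3K4me3, against -0.13 for H3K4me1, -0.35 for H3K27me3 and -0.78 for H3K27ac. How the signal had been scaled between libraries is not stated, so ratios of H3K27ac, H3K27me3 and H3K4me1 are also given relative to these medians. Of 8 epithelial markers with a start, 4 carried promoter H3K4me3 in control and 6 after butyrate. H3K27ac was at 3 of the 8 in control and at 4 after butyrate. In control the highest H3K4me3 signals of the 8 were at ITGB4 and DSP. ITGB4 had 148.9 in control and 114.6 after butyrate, and DSP had 110.5 and 103.0. Both carried H3K27ac in both libraries, ITGB4 with 41.7 and 38.9 and DSP with 24.1 and 30.3. KRT5, a keratin of basal cells, had an H3K4me3 signal of 65.9 in control and 61.0 after butyrate, and EPCAM, an adhesion protein, had 66.2 and 118.7. EPCAM, alone of the 8, also carried H3K27me3, with 15.1 and 13.7, and it had no H3K27ac. KRT14 and KRT15 had H3K4me3 after butyrate only, with 31.6 and 31.7, whereas TP63 and CDH1 had neither H3K4me3 nor H3K27ac within 2 kb of their listed start. Markers of fibroblasts carried H3K4me3 at 4 of 5 promoters in control and 3 after butyrate, where COL1A1, a collagen gene, had signals of 101.2 and 87.1 and the receptor gene PDGFRA 46.8 and 125.4. PDGFRA, alone of these 5, also carried H3K27me3, with 19.6 and 8.97, and it had no H3K27ac. H3K27ac was at 2 of the 5 in control, COL1A1 with 48.1 and COL1A2, another collagen gene, with 31.5. After butyrate only COL1A1 had it, with 27.1. Mural cell markers had H3K4me3 at 2 of 5 and 3 of 5, endothelial markers at 1 of 6 and 2 of 6, and immune markers at 0 of 4 in both conditions. Of those with H3K4me3, MYH11, KDR and CLDN5 also carried H3K27me3 in both libraries and no H3K27ac. CSPG4 and ACTA2 carried H3K27ac and no H3K27me3. The part of other cell types in the results below was not tested.

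The 9 Notch gene promoters fell into 4 combinations of marks, and each gene kept its combination after butyrate. NOTCH1, NOTCH2, JAG1, HES1 and HEY1 carried H3K4me3 and H3K27ac without H3K27me3, as did 39.4% of all promoters in control and 30.7% after butyrate. DLL1 and DLL4 carried H3K4me3 together with H3K27me3 and had no H3K27ac interval, a combination held by 8.88% of all promoters in control and 12.5% after butyrate. JAG2 carried H3K27me3 without H3K4me3, like 18.9% of promoters in control and 15.4% after butyrate. RBPJ had none of these 3 marks at its listed start, as was the case for 21.8% and 20.1%.

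**Figure D1:**
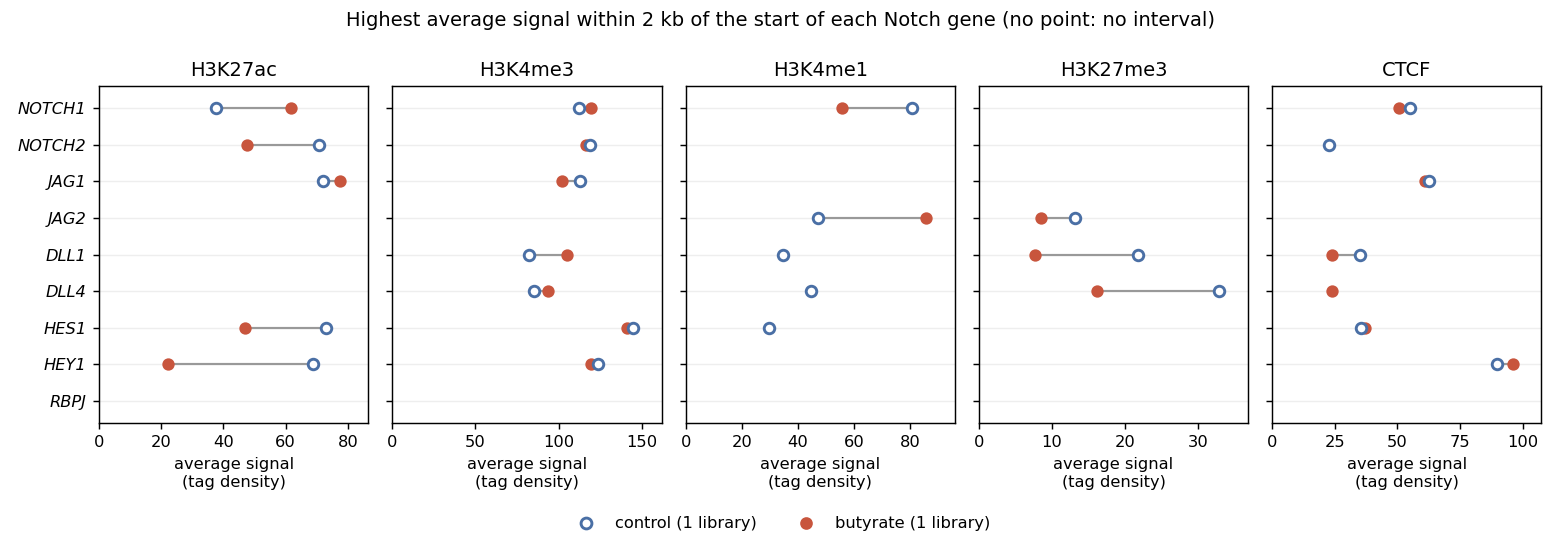
Highest average signal (tag density, horizontal axis, from 0) of the intervals within 2 kb of the start of each Notch gene, in 1 panel per target, with open circles for the control library and filled circles for the butyrate library. No error can be drawn because each target had 1 library per condition. H3K27me3 sits only at JAG2, DLL1 and DLL4, and all 3 filled circles lie to the left of the open ones, as was common among all promoters.

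H3K27ac, the mark of active promoters, was found at 5 of the 9 promoters in control, where 47.3% of all 23869 promoters had it, and at the same 5 after butyrate, where 34.9% had it. None of the 5 was marked in control only, against 30.4% of all promoters marked in control. Of the 5, only HEY1 differed by at least 2-fold, and it was lower. Among all promoters marked in both libraries, 33.7% were lower to that extent. RBPJ was counted by its listed start here and for the other marks. Its inner H3K27ac intervals, with log2 ratios of -1.74 and -1.06, are therefore outside these counts and are described below. The median log2 ratio of the 5 was -0.57, beside -0.78 over all promoters. The 5 genes were spread widely around that median, from -1.62 at HEY1 to 0.72 at NOTCH1.

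NOTCH1, the receptor with the best known part in epidermal differentiation, starts at position 104030946 of chromosome 11 in the cattle build UMD3.1, on the minus strand. Its promoter H3K27ac signal was 37.5 in control and 61.6 after butyrate, a log2 ratio of 0.72, or 1.49 above the median of all promoters. A ratio above 0 was seen at 9.13% of all promoters marked in both libraries, and that of NOTCH1 stood at percentile 99.4 of them. In control its signal stood at percentile 32.6 of marked promoters, and after butyrate at percentile 97.2. Both signals came from intervals with nearly the same bounds just inside the gene, 994 bp long in control and 1075 bp after butyrate.

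NOTCH2, the second receptor of the set, starts at 23306956 on chromosome 3, on the plus strand. Its promoter H3K27ac was 70.6 in control and 47.6 after butyrate, a log2 ratio of -0.57. The median promoter was lower by more than that, so the value was 0.21 relative to the median and its direction depends on the scaling. NOTCH2 stood at percentile 84.9 of marked promoters in control and 90.9 after butyrate.

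JAG1, the Jagged ligand that binds Notch receptors of neighboring cells, starts at 3876681 on chromosome 13, on the minus strand. Its promoter signal of H3K27ac was 71.9 in control and 77.3 after butyrate, a log2 ratio of 0.11, but these maxima belong to different intervals. The interval that lies mostly inside the gene, and in control spans the start, had 68.6 in control and 77.3 after butyrate, a log2 ratio of 0.17. The interval just upstream of the start had 71.9 in control and 40.9 after butyrate, a log2 ratio of -0.81. By peak signal the JAG1 promoter had a log2 ratio of -0.28, so the sign at this gene rests on which part of the promoter is read.

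HES1 and HEY1 encode the repressors that Notch signaling switches on. HES1 starts at 73976720 on chromosome 1, on the minus strand, and its promoter H3K27ac was 73.0 in control and 47.0 after butyrate, a log2 ratio of -0.64 and 0.14 relative to the median. The HES1 interval was 3396 bp long in control and 1095 bp after butyrate, and its peak signal was 166 and 69, a log2 ratio of -1.27. After butyrate a further interval with a signal of 29.4 was called within the span of the control interval. Together these 2 butyrate intervals covered 1424 bp. At HEY1, which starts at 45128997 on chromosome 14 on the minus strand, the signal was 68.8 in control and 22.3 after butyrate, a log2 ratio of -1.62. Relative to the median of all promoters HEY1 was still lower, at -0.85, and its rank went from percentile 83.1 of marked promoters in control to 16.9 after butyrate. The peak signal of HEY1 was 153 in control and 26 after butyrate, and its interval was 1083 bp and 406 bp long. For comparison, the median length of the longest H3K27ac interval over all promoters marked in both was 1622 bp in control and 665 bp after butyrate, so a shorter interval was common.

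Sites close to both target genes showed the same order of the libraries. A site upstream of HEY1, with its summit at -2907 bp from the start in control, had an H3K27ac signal of 41.7 in control and 21.5 after butyrate. Within HEY1, 2213 bp past the start, an H3K27ac interval with a signal of 35.3 was called in control only. Downstream of HES1, 4896 bp past its start, H3K27ac was 84.5 in control and 30.5 after butyrate, a log2 ratio of -1.47. This is a larger difference than that of the HES1 promoter by average or peak signal, but not by signal summed over the promoter window, which gave -2.07. H3K4me3 at that downstream site ran in the other direction, with 38.3 in control and 74.4 after butyrate, and H3K4me1, with 42.1, was called there in control only. This site holds a CpG island, and the HES1 intervals are shared with the provisional loci LOC104970900 and LOC104970901, so they cannot be credited to HES1 alone.

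**Figure D2:**
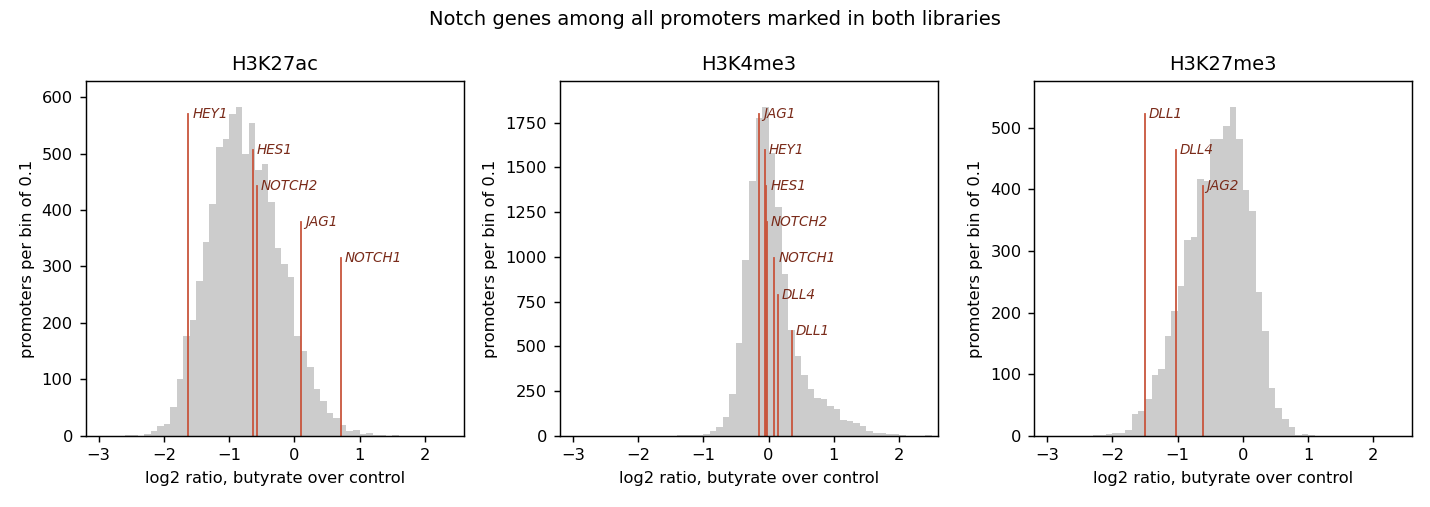
Number of promoters (vertical axis) in bins of 0.1 of the log2 ratio of butyrate over control (horizontal axis), over all promoters marked in both libraries, with red lines at the Notch genes. NOTCH1 lies in the right tail of H3K27ac at 0.72, HEY1 in its left tail at -1.62, and DLL1 in the left tail of H3K27me3 at -1.50.

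H3K4me3 was present at 7 of the 9 promoters in both conditions, and 56.8% of all promoters had it in control and 61.9% after butyrate. None of the 7 differed by 2-fold, in step with the background, where 3.94% reached a 2-fold higher signal and 0.0963% a 2-fold lower one. The median log2 ratio was -0.03, beside -0.01 over all promoters. HES1 had the highest H3K4me3 of the set, 144.7 in control and 141.2 after butyrate, at percentiles 97.5 and 96.6 of marked promoters. HEY1 had 124.0 and 119.7, a log2 ratio of -0.05, so its H3K4me3 was nearly level between the libraries where its H3K27ac differed by the most in the set. The receptors were also level, with 112.6 and 119.8 at NOTCH1 and 119.0 and 116.4 at NOTCH2. JAG1 had 112.8 in control and 102.4 after butyrate, a log2 ratio of -0.14.

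The largest H3K4me3 ratio was that of DLL1, a Delta ligand, with 82.2 in control and 105.1 after butyrate, a log2 ratio of 0.36. DLL4, the Delta ligand best known from blood vessel sprouting, had 85.1 and 93.8, a log2 ratio of 0.14. Both stood in the lower range of marked promoters in control, at percentiles 38.8 and 42.7, and at 75.7 and 61.7 after butyrate.

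The width of the H3K4me3 interval differed more than its height at some of the genes. At NOTCH1 the interval was 4384 bp long in control and 7114 bp after butyrate, and at JAG1 it was 5495 bp and 9048 bp. These 2 of 7 genes had an interval at least 1.5 times as wide after butyrate, as did 14% of all promoters marked in both. DLL4 had 2281 bp and 3142 bp and DLL1 had 2145 bp and 2802 bp. At NOTCH2 the width was 3408 bp in control and 3409 bp after butyrate, at HEY1 it was 1610 bp and 1612 bp, and at HES1 it was 2403 bp and 2196 bp. A median promoter had 2056 bp in control and 2051 bp after butyrate. At NOTCH1 the butyrate interval took the place of a main interval and smaller ones inside the gene in control, so part of the added width had been called as separate intervals before. The same held at DLL4, DLL1 and JAG1. All body intervals of H3K4me3 together covered 2946 bp in control and 3142 bp after butyrate at DLL4, 2758 bp and 3044 bp at DLL1, and 6407 bp and 9591 bp at JAG1.

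H3K27me3, the Polycomb mark, was found at 3 of the 9 promoters in both conditions, all of them ligand genes, and 33% of all promoters had it in control and 29.3% after butyrate. The signal was lower after butyrate at all 3, and a ratio above 0 was seen at only 21.4% of all promoters marked in both libraries. It was at least 2-fold lower at DLL1 and DLL4, against 11.7% of all promoters marked in both. The median log2 ratio was -1.02, beside -0.35 over all promoters. None of the 3 was marked in control only, against 20.6% of all promoters marked in control. Of the 6 genes without promoter H3K27me3, HES1 had an interval further upstream with a signal of 6.61 and NOTCH1 one downstream with 13.0, each in the control library alone.

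DLL1, which starts at 105517147 on chromosome 9 on the minus strand, had an H3K27me3 signal of 21.8 in control and 7.69 after butyrate, a log2 ratio of -1.50, or -1.15 relative to the median. Among all promoters marked in both libraries this ratio stood at percentile 1.56. The interval itself hardly differed in length, with 12399 bp in control and 11799 bp after butyrate, while its peak signal was 115 and 34. It is shared with FAM120B and the provisional locus LOC104969668, which therefore carry the same value.

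DLL4 starts at 36577285 on chromosome 10, on the plus strand, and its H3K27me3 was 33.0 in control, percentile 95.7 of marked promoters, and 16.2 after butyrate, percentile 92.4. The log2 ratio was -1.02, or -0.67 relative to the median, and the interval was 23799 bp and 18999 bp long. JAG2, the second Jagged ligand, starts at 71156692 on chromosome 21, on the minus strand, and had 13.1 and 8.56, a log2 ratio of -0.62 and -0.26 relative to the median. Its interval was far shorter after butyrate, 14399 bp against 38999 bp in control, beside medians of 11999 bp and 13199 bp over all promoters. It is listed also to NUDT14 in both libraries and to BRF1 in control. When the libraries were scaled on the top 10% of promoters, the log2 ratio was -0.51 at DLL1, -0.027 at DLL4 and 0.38 at JAG2. By average signal, only DLL1 was thus lower by more than a small margin under each scaling tried. By peak signal as deposited, the log2 ratios were -1.76 at DLL1, -1.36 at DLL4 and -1.53 at JAG2. The peak ratio over all promoters is not given here.

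DLL1 and DLL4 belong to the 3382 promoters that carried both H3K4me3 and H3K27me3 in control. Of these, 32.4% had no H3K27me3 interval after butyrate, whereas DLL1 and DLL4 kept theirs. Over those that kept it, the median log2 ratio of H3K27me3 was -0.60, and 19.4% were at least 2-fold lower. H3K4me3 over this class had a median log2 ratio of 0.33, close to the 0.36 of DLL1 and above the 0.14 of DLL4.

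H3K4me1 showed the most promoters marked in 1 library only. It was present at 5 of the 9 promoters in control, against 30.8% of all promoters, and at 2 after butyrate, against 18.2%. DLL1, DLL4 and HES1 had it in control only, with signals of 34.8, 44.6 and 29.9. Over all promoters marked in control, 55.8% were marked in control only, so the 3 of 5 here are near the background. The 3 signals were low to middling, at percentiles 29.3, 63.8 and 10.9 of marked promoters.

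JAG2 stood apart in H3K4me1. Its promoter signal was 47.4 in control and 85.8 after butyrate, a log2 ratio of 0.86, or 0.98 relative to the median, at percentile 99.4 of all promoters marked in both libraries. Both intervals had their summits beyond the 2 kb window, 2164 bp past the start in control and 3316 bp after butyrate, and only the edge of the control interval reached it. With a window of 1 kb, or at least 200 bp of overlap, JAG2 had no promoter H3K4me1 in control and the ratio could not be taken, and the signal summed over the window gave 4.81. The number of H3K4me1 intervals reaching the promoter was 1 in control and 5 after butyrate, and over the whole neighborhood listed to JAG2 it was 4 and 15. In the butyrate library these intervals ran on both flanks of the start, with signals of 64.3 at -348 bp, 60.9 at -1100 bp and 61.0 at 916 bp from the start. No H3K27ac interval was listed to JAG2 in either library. Its H3K4me3 was found away from the start, at a CpG island site upstream with 68.9 in control and 81.2 after butyrate, and inside the gene with up to 38.3 and 49.5. At NOTCH1 the highest promoter H3K4me1 was 80.6 in control and 55.8 after butyrate, on different sides of the start. The interval inside the gene, 1278 bp long in control, had 80.6 and 40.9, a log2 ratio of -0.98, and the upstream one had 46.2 and 55.8, a log2 ratio of 0.27.

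CTCF was found at 6 of the 9 promoters in each condition, against 24.6% of all promoters in control and 26.8% after butyrate. It was called in both libraries at 5 of them, and none of these differed by 2-fold, as was rare among all promoters (0.214% lower and 0.681% higher). The median log2 ratio was -0.04, beside 0.03 over all promoters. HEY1 had the strongest CTCF of the set, 89.7 in control and 96.0 after butyrate, at percentiles 98.1 and 98.8 of marked promoters. Its summit lay 2405 bp past the start in control and 2373 bp after butyrate, so only the edge of this interval reached the promoter window, and with a window of 1 kb HEY1 had no CTCF. JAG1 followed with 62.8 and 61.1, then NOTCH1 with 54.9 and 50.5 and HES1 with 35.6 and 37.3. At DLL1 the signal was 35.0 in control and 23.9 after butyrate, a log2 ratio of -0.55. The promoters called in 1 library only had weak signals, with 22.7 at NOTCH2 in control and 23.8 at DLL4 after butyrate, and such calls were not rare among all promoters: 12.6% of those with CTCF in control had it in control only, and 6.93% of those without it had it after butyrate.

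Inside the gene bodies, the Notch genes had 47 H3K27ac intervals in control and 84 after butyrate, while the bases covered were 53027 and 59026. Over all genes of the table the body listings were 27055 and 40643, so a higher count after butyrate was general. When overlapping intervals of both libraries were joined, the Notch gene bodies held 31 regions called in both, 46 after butyrate only and 13 in control only. Among all 60755 H3K27ac regions, 40.7% were called after butyrate only and 30.6% in control only.

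NOTCH1 had 4 body intervals of H3K27ac in control and 16 after butyrate, covering 4100 bp and 17866 bp. All 4 of the control regions were called again, and 12 were added. A count at least 2 times as high after butyrate was seen in 54.3% of the 1631 genes with at least 10 such intervals, and one as high as that of NOTCH1, 4 times, in 22.7%. In control no NOTCH1 body interval had its summit more than 5 kb from the start, and after butyrate 11 had, out to 33634 bp. The widest of them was 7667 bp long with a signal of 44.8, and it was followed by a 2768 bp interval with 42.6. H3K4me1 over the same stretch of NOTCH1 was a 272 bp interval with 38.8 in control and an 8410 bp interval with 65.4 after butyrate. Over the gene body, H3K4me1 covered 5706 bp in control and 14717 bp after butyrate.

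**Figure D3:**
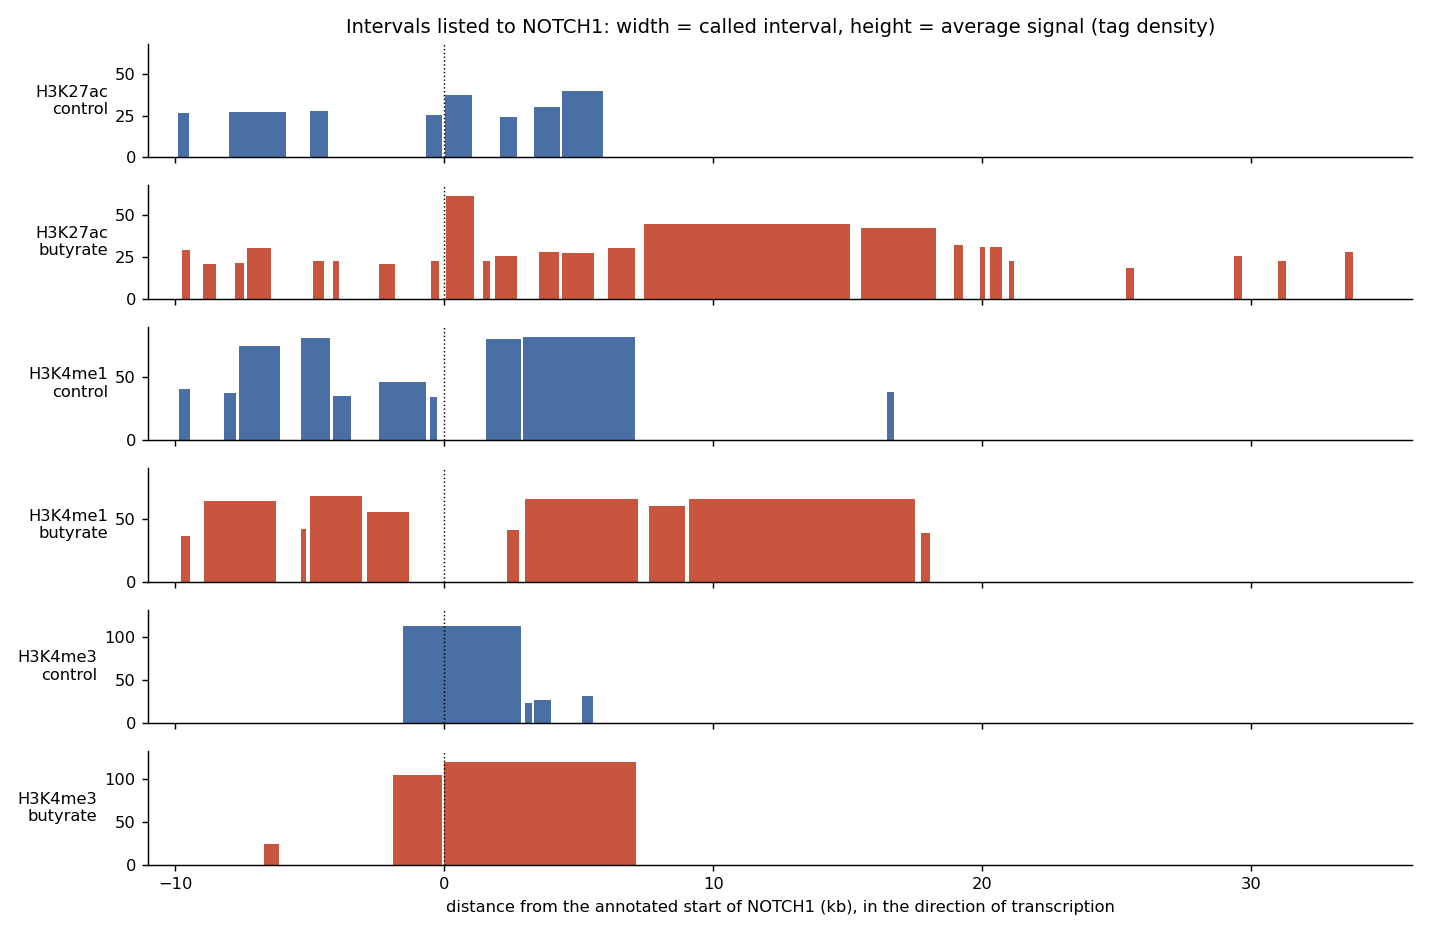
Intervals listed to NOTCH1 by distance from its start in kb (horizontal axis), for H3K27ac, H3K4me1 and H3K4me3 in control (blue) and after butyrate (red). The width of a bar is the called interval and its height the average signal (tag density, from 0), and beyond 5 kb inside the gene H3K27ac has summits only after butyrate, where it includes the 7667 bp interval.

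NOTCH2 showed a different pattern from NOTCH1. Its body held 26 H3K27ac intervals in control and 46 after butyrate, but the bases covered were 29124 and 24204, so the intervals after butyrate were more and shorter. The whole H3K27ac libraries ran the same way. The control library held 38148 intervals of median length 666 bp over 40.7 Mb, and the butyrate library 48701 of 417 bp over 32.6 Mb. A count ratio as high as that of NOTCH2 was seen in 58.4% of the 1631 genes with at least 10 such intervals. Of the NOTCH2 H3K27ac regions, 15 were shared, 26 were called after butyrate only and 9 in control only. Most of these signals were weak, with medians of 20.1 and 20.8, and 36 of the 46 butyrate intervals lay below the median of their library, 23.8. The strongest inner H3K27ac intervals in control, 5416 bp with 42.5 and 4392 bp with 43.8, were the widest in the body, and no inner interval after butyrate reached a signal of 40.

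H3K4me1 in the NOTCH2 body was 55 intervals over 32098 bp in control and 8 intervals over 2165 bp after butyrate. In control this count ranked 18 among all genes with body intervals, and after butyrate it ranked 859. Of the 1798 genes with at least 10 such intervals, 20.9% had a count at least 2 times lower after butyrate, and 4.23% had one lower by as much as NOTCH2 or more. Joined over both libraries, 49 NOTCH2 regions were called in control only, 6 in both and 2 after butyrate only, while among all 71334 H3K4me1 regions 41.3% belonged to the control library only and 27% to the butyrate library only. Of the 55 control intervals, 37 had a signal below the library median of 36.5, and the signals of all 55 lay between 24.9 and 55.0. NOTCH2 thus made up most of the difference in the whole set, which had 81 H3K4me1 body intervals in control and 30 after butyrate. An inner site of NOTCH2 with H3K4me3, 87636 bp past the start in control, had 54.7 and 28.6, a log2 ratio of -0.94.

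**Figure D4:**
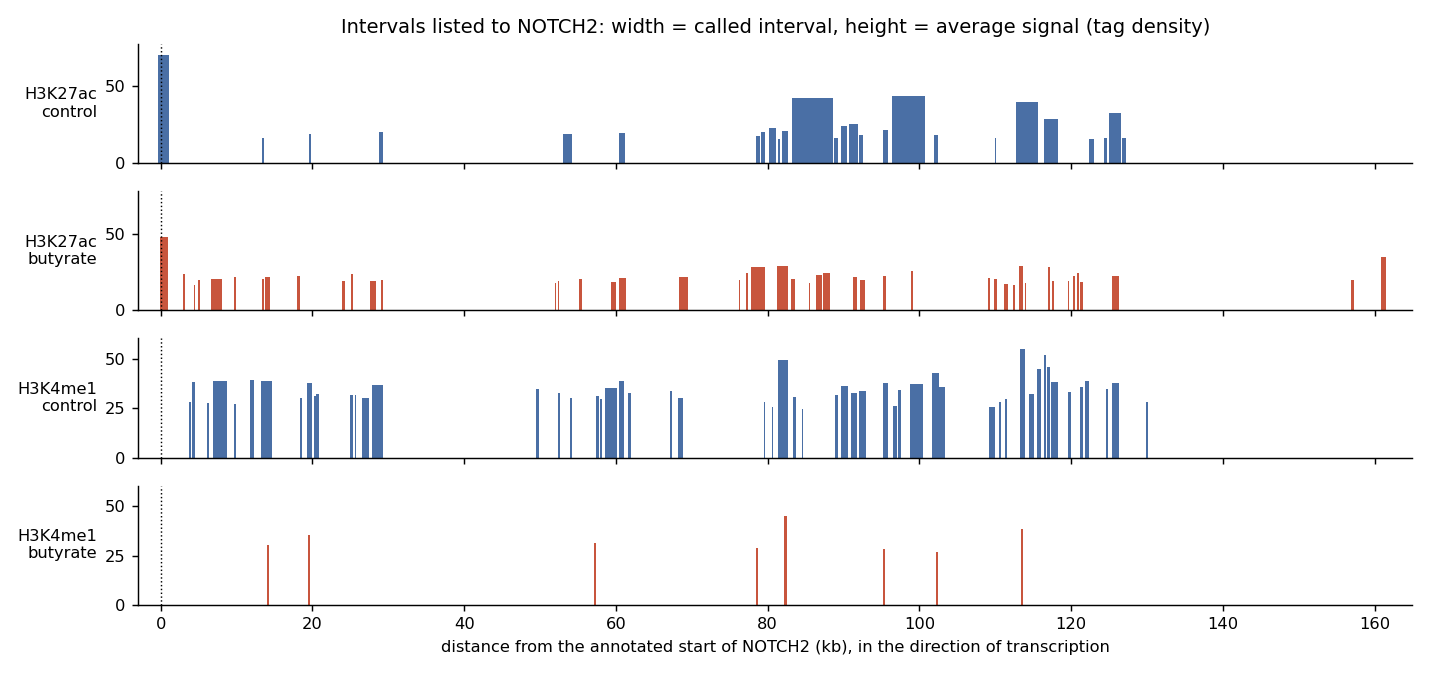
Intervals listed to NOTCH2 by distance from its start in kb (horizontal axis), for H3K27ac and H3K4me1 in control (blue) and after butyrate (red). The width of a bar is the called interval and its height the average signal (tag density, from 0), and 55 H3K4me1 intervals in control stand against 8 after butyrate while H3K27ac has 26 and 46.

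JAG1 had 10 H3K27ac body intervals in control and 17 after butyrate, over 10370 bp and 14145 bp. A count ratio as high was seen in 61.3% of the 1631 genes with at least 10 such intervals. Of the JAG1 regions, 8 were shared, 8 were called after butyrate only and 1 in control only. The site 10729 bp past the JAG1 start had the largest ratio of the shared ones, 24.1 in control and 42.9 after butyrate, a log2 ratio of 0.83. The H3K4me1 body intervals of JAG1 were 9 and 10 in number but covered 12154 bp in control and 5473 bp after butyrate. Over the whole H3K4me1 libraries, the coverage was 39.6 Mb in control and 29.0 Mb after butyrate. The widest JAG1 interval of this mark in control was 3488 bp long with a signal of 71.4. The longest H3K4me3 interval of JAG1, wider after butyrate, reached further into the gene over this stretch, where smaller control intervals had summits out to 6793 bp. JAG1 intervals in the far part of the gene and beyond it are listed also to the provisional loci LOC104973692 and LOC104973693.

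RBPJ, the DNA-binding partner of the receptor's intracellular part, starts at 47191142 on chromosome 6 on the plus strand, and no interval of any target lay within 2 kb of that position. Its promoter-like marks were found far inside the listed gene, and whether the listed start is the one used in these cells was not tested. At 126938 bp past the start H3K4me3 was 86.3 in control and 73.9 after butyrate, and a second interval at 127818 bp had 98.7 and 92.7. H3K27ac at this inner site was 60.6 in control and 18.2 after butyrate, a log2 ratio of -1.74, and beside it 57.4 and 27.6, a log2 ratio of -1.06. The length of the former interval was 2508 bp in control and 335 bp after butyrate. Relative to the median shift of H3K27ac promoters, -0.78, both were lower after butyrate. The intervals at this site overlap CpG islands and are listed also to the provisional locus LOC104968527. In addition RBPJ had 6 H3K4me1 body intervals in control, with signals between 25.4 and 37.0, and 0 after butyrate.

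The other genes of the pathway were taken from a list of 70 symbols chosen by role, 65 of which had a start. Among these, 41 had H3K27ac in control and 36 had it after butyrate, where the shares over all promoters were 47.3% and 34.9%. Of the 41, 6 lacked it after butyrate, against 30.4% over all promoters. Of 35 marked in both, 10 were at least 2-fold lower and 0 higher, against 33.7% lower over all promoters, and the median log2 ratio was -0.72, beside -0.78. Loss of H3K27ac in the list was thus no more frequent than in the background. The lowest ratios were those of MIB2, a ubiquitin ligase acting on ligands, with -2.05, the corepressor NCOR1 with -1.57, and the gamma-secretase subunit PSENEN with -1.44. The 9 proteases that cut the receptor had H3K27ac at 8 promoters before and 7 after the treatment, with a median log2 ratio of -1.16. The 5 glycosyltransferases that modify the receptor had H3K27ac at all 5 promoters in both libraries, with a median of 0.22 and members in both directions. Among them RFNG had 30.9 in control and 41.5 after butyrate, MFNG had 25.7 and 32.3, and LFNG had 27.1 and 31.6. POGLUT1 was at least 2-fold lower, with 45.1 and 22.0, a log2 ratio of -1.04, and POFUT1 had 36.5 and 31.3. The first 3, the Fringe genes, change the choice of ligand, and all 5 were named after their values had been seen.

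H3K4me3 covered 54 of the 65 in control and 58 after butyrate, against 56.8% and 61.9% of all promoters. The 4 marked after butyrate only were the ligand gene DLL3 with 61.6 and the listed targets HES3 with 56.3, DTX1 with 52.3 and HEYL with 44.2. Over all promoters unmarked in control, 12.4% were marked after butyrate. NRARP, a feedback inhibitor of the pathway, had 55.0 in control and 137.9 after butyrate, a log2 ratio of 1.33, and HES4 had 50.2 and 101.6, a log2 ratio of 1.02. The median of the list was 0.11, beside -0.01 over all promoters.

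H3K27me3 covered 22 of the 65 promoters in control and 19 after butyrate, against 33% and 29.3% of all promoters, so the list was near the background. Its median log2 ratio over the 19 was -0.52, beside -0.35. The lowest ratios were those of HES6 with -1.46, DLK2 with -1.32, HES4 with -1.20 and DLL3 with -1.12, and 3 of the 22 were marked in control only, against 20.6% of all promoters with the mark in control. NOTCH4, the receptor outside the set, had 9.43 in control and 10.1 after butyrate and carried neither H3K4me3 nor H3K27ac.

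The genes listed as targets outside the set differed in their marks from HES1 and HEY1. They were listed by role, and whether Notch drives them in these cells was not tested. All 10 of them had H3K27me3 in control and 9 had it after butyrate, against 33% and 29.3% of all promoters, while HES1 and HEY1 had it in neither library. H3K4me3 was at 7 of the 10 in control and at 10 after butyrate, against 56.8% and 61.9% of all promoters. The median log2 ratio of H3K4me3 over the 7 was 0.77, whereas HES1 and HEY1 had -0.04 and -0.05. Over all promoters with both H3K4me3 and H3K27me3 in control, the class that 7 of the 10 belong to, this median was 0.33, and 32.4% had no H3K27me3 after butyrate. H3K27ac was at 2 of the 10 in control, HES7 with 24.4 and HES4 with 19.4, and at 0 after butyrate, beside the 30.4% of all promoters with the mark in control that lacked it after butyrate. HES1 and HEY1 were thus the listed targets with H3K27ac in both libraries. No test bears on these differences between genes, which share their libraries.

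**Figure D5:**
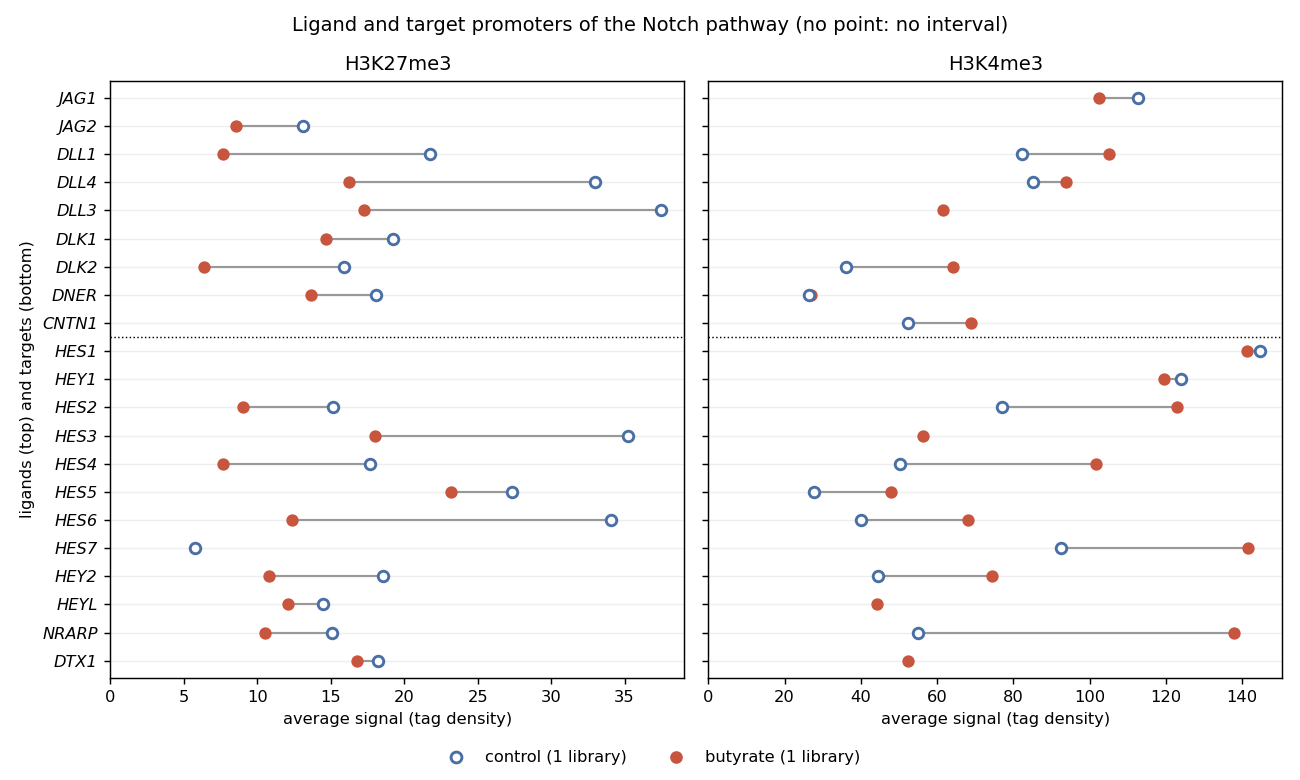
Promoter signal of H3K27me3 (left) and H3K4me3 (right), as highest average signal (tag density, horizontal axis, from 0), at the ligand genes (above the dotted line) and target genes (below it), with open circles for control and filled circles for butyrate, 1 library each. Most filled circles lie left of the open ones for H3K27me3 and right of them for H3K4me3, while HES1 and HEY1 have no H3K27me3 and stand near 141.2 and 119.7 for H3K4me3 after butyrate.

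Genes with the most similar promoter pattern were looked up by the mean absolute difference of log2 signal, with 1 added, over the 10 libraries. The closest to NOTCH1 were DVL1 with 0.16 and EEF1D with 0.17. H3K27ac, one of the values they were chosen on, was 40.5 in control and 53.9 after butyrate at DVL1 and 43.0 and 63.4 at EEF1D. The closest to JAG1 were TMEM260 and FAM133B, each with 0.10, and the closest to HES1 were FEM1B and SDC1, also each with 0.10. The likeness is a description over libraries that all promoters share.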

How the data were processed

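The deposited interval table covered 10 ChIP-seq libraries, H3K27ac, H3K4me3, H3K4me1, H3K27me3 and CTCF with 1 library each in control and after butyrate, and the labels give 1 input besides. The submitters' processing notes name Trim Galore 0.4.1, BWA, MACS2 and the cattle build UMD3.1. Per the methods of the study, BWA aligned the ChIP-seq reads and MACS2 called peaks against the input, and trimming is not described for these libraries. The signal in the table deposited by the authors is a tag density, given as peak and as average signal of each interval, and its scaling between libraries is not stated. Read totals were not used here, so no precision from depth is given, and whether coordinates count from 0 or 1 is not stated.

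Groups followed the sample titles. Gene starts were derived from the summit and annotated distance of each interval, for symbols with at least 2 listings of which 90% agreed, which gave 23869 starts. Promoters reached 2 kb to either side of a start, needed 1 bp of overlap, and took the highest average signal of the intervals found, with no pseudocount. Gene bodies were the intervals annotated as inside the gene. A difference of at least 2-fold, or an interval in 1 library only, was counted. With 1 library per target and condition no test between groups was made.

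The genes and the pathway and marker lists were chosen with earlier results of these data known. All genes of the set were named. Of the other pathway genes, up to 4 per mark with the largest ratio or, if marked in 1 library only, the highest signal were named, and genes named as members of small counts or by role were chosen after their values were seen. Some genes that this rule takes in are not reported here. Alternatives were windows of 1 kb and 5 kb, a stricter peak signal (at or above the 25% quantile), 200 bp of overlap, folds of 1.5 and 3, peak or summed signal, centring, a pseudocount of 1, and scaling on the top 10% of promoters. The code was tested on simulated data. Python 3.11.15, numpy 2.4.6, pandas 2.3.3 and matplotlib 3.10.9 were used.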

Additional observations from a re-analysis of the deposited data

How the results depend on the processing

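No paired analysis was possible because each target had 1 library per condition and the labels give no replicate numbers, and for the same reason no replicate could be left out. Each count, median and single ratio was recomputed under several alternatives, so the totals here are of recomputed values and not of separate results. For counts and medians, 104 of 119 recomputed values stayed within the set margin, and for single ratios 148 of 170 did. Every single ratio of H3K27ac left the margin when centred on all promoters. The median log2 ratio of H3K27ac, -0.57, was 0.21 when centred on all promoters and 0.31 when scaled on the top 10% of promoters, and that of H3K27me3, -1.02, was -0.027 under the latter. The H3K4me1 median of 2 promoters, 0.16, was 1.67 for signal summed over the window. At a fold of 1.5, 3 promoters differed in H3K27ac, and at a fold of 3, 0 did in H3K27me3. With a window of 5 kb, H3K4me1 marked 8 promoters in control and 5 after butyrate. With 1 kb it marked 1 after butyrate and changed at 5. CTCF within 1 kb marked 3 promoters in control and 2 after butyrate and changed at 1, and 1 was changed under the stricter interval threshold. H3K4me3 body intervals in control numbered 15 under that threshold. NOTCH1 H3K27ac lay between 0.64 and 1.59 and HEY1 between -3.07 and -0.75 under every setting, whereas NOTCH2, JAG1 and HES1 changed sign with the scaling or the signal used. Differences between libraries of 1 target can hold depth, which was not examined.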
